A study of Mus musculus with 54 samples.

Results

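The T cell receptors CD5 and CD6, the CD6 ligand ALCAM, and the noncoding gene lying between *Cd5* and *Cd6* were followed at the RNA level. The genes were picked by name, as *Cd5*, *Cd6*, *Alcam*, and *A430093F15Rik*, and not by a cut on their measured levels, though earlier results of these data were known. All 4 were among the 55385 genes of the count tables. RNA was sequenced from naive CD4+ T cells of C57BL/6 background mice in 2 experiments, with 3 libraries for each genotype and time. Cells were left unstimulated (0 h) or were stimulated for 4 h or 20 h with plate-bound anti-CD3 at 3 µg/ml and anti-CD28 at 1 µg/ml, which engage the TCR and a costimulatory receptor.

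The CD5/CD6 experiment compared WT, Cd5-/-, Cd6-/-, and Cd5-/-Cd6-/- cells, isolated with a magnetic kit from lymph nodes and spleens that had been pooled. The Cd5-/- mice carried a disrupted *Cd5* allele that had been backcrossed to C57BL/6, whose structure was not given in the sources used here. The Cd6-/- mice carried a short CRISPR deletion around the start codon, so that most of the exons counted for *Cd6* were still in place, and the Cd5-/-Cd6-/- mice carried 1 long CRISPR deletion reaching from *Cd5* into *Cd6*. The LAT experiment compared WT cells that expressed the human DTR (hDTR+) with Lat-/- cells that did not (hDTR-). Both kinds of cell were sorted by flow cytometry from pooled lymph nodes and spleens of Latfl-dtr maT-Cre mice, in which Cre is active in T cells, so the WT cells from the LAT experiment carried the modified *Lat* allele too. Mice were 8 to 10 wk of age.

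CD5 and CD6 are transmembrane receptors with scavenger receptor cysteine-rich (SRCR) domains, and their cytoplasmic tails are phosphorylated on tyrosines when the TCR is engaged. CD5 is known mainly as a brake on TCR signaling, and its surface level on T cells is known to follow the strength of TCR signaling. CD6 binds ALCAM (CD166), an adhesion molecule of the immunoglobulin superfamily found on antigen-presenting and other cells and also on activated T cells. LAT is the membrane adaptor on which the signaling complex downstream of the TCR assembles.

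*Cd5* (ENSMUSG00000024669) spans positions 10717116 to 10739002 of chromosome 19 on the minus strand, in the GRCm38 coordinates of GENCODE M21. *Cd6* (ENSMUSG00000024670) spans 10789341 to 10830058 on the same strand. *A430093F15Rik* (ENSMUSG00000067577), annotated as a processed transcript, spans 10740947 to 10786043 on the plus strand. It starts 1945 bases from the annotated start of *Cd5* and runs away from it, and it ends 3298 bases before the 3′ end of *Cd6*, so its exons overlap neither gene. *Alcam* (ENSMUSG00000022636) lies apart, at 52248996 to 52454074 of chromosome 16 on the minus strand.

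The guide sequences used to make the deleted alleles are shown with their NGG motif in capitals, since they place the edits among the members. The first and second were used for the Cd5-/-Cd6-/- mice, and the second and the last for the Cd6-/- mice.
CD5-1: cagcacttcgtgggagtccaTGG
CD6-1: ggagacggttgtgccaccgaTGG
CD6-2: ccaaggaagagccacatgtcTGG
All 3 guides matched the plus strand of chromosome 19. CD5-1 matched positions 10738826 to 10738845 in the coding part of *Cd5* exon 1, next to the first coding base at 10738846. CD6-1 matched 10829917 to 10829936 in the noncoding part of *Cd6* exon 1, and CD6-2 matched 10829840 to 10829859, across the first coding base at 10829856. Between the cut positions of CD5-1 and CD6-1 lie 91091 bases, which hold the whole of *A430093F15Rik* and all of *Cd6* except the first part of its exon 1. The start of *Cd5* and everything upstream of it also lie in this interval, whereas the rest of the *Cd5* gene lies outside it. The alleles chosen by sequencing do not end exactly at the cut positions, and their exact ends are not analysed here.

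The sequences just upstream of *Cd5* and *A430093F15Rik*, which start close together and run in opposite directions, were taken from RefSeq promoter windows of GRCm38.p6, leaving out bases inside the GENCODE genes. The letters GGAAGT of an ETS motif are in capitals.
Cd5 (chr19:10739003-10739224, minus strand, 222 bases): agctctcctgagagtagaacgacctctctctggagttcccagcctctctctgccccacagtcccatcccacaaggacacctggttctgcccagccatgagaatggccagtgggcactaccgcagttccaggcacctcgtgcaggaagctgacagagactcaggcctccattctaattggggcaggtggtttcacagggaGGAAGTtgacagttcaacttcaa
A430093F15Rik (chr19:10740697-10740946, plus strand, 250 bases): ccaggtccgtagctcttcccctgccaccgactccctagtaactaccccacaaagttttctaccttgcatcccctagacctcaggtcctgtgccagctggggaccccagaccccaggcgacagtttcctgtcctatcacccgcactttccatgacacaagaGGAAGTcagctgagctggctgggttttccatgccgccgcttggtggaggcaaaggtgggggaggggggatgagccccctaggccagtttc
Each window held GGAAGT 1 time, 51 bases upstream of the RefSeq start of *Cd5* and 90 bases upstream of that of *A430093F15Rik*. The window of *Alcam* held none. These letters, searched on both strands, occurred in 19.7% of 32851 windows of 250 bases. The E-box letters CANNTG were found at 2, 1, and 2 places in the windows of *Cd5*, *Alcam*, and *A430093F15Rik*, against a share of 66.2% of all windows with a match, and none overlapped the ETS letters. Neither the AP-1 letters TGANTCA, found in 6.75% of windows, nor the EGR letters GCGNGGGCG, found in 4.7%, matched any of the 3 windows. No window for *Cd6* was used here.

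Libraries held 20554354 to 45222554 counted reads (median 31680304) in the CD5/CD6 experiment and 17784644 to 28501095 (median 23430703) in the LAT experiment. Levels are given as CPM, the reads of a gene scaled to the total counted in its library multiplied by that library's edgeR TMM factor. Levels of different genes were compared only as CPM per kb of exon. At 0 h, the libraries labelled Cd5-/- 2 and Cd6-/- 2 went against their labels: the first held *Cd5* at 719 and *Cd6* at 329 CPM, and the second held *Cd5* at 172 and *Cd6* at 1203 CPM. They were kept as labelled, and the members' comparisons at 0 h and responses that include them are also given without both. Of the 8 CD4 T cell markers, none was at 0 in any library, and their summed level was 7373 to 9500.1 CPM at 0 h in the CD5/CD6 experiment and 8672 to 10452 CPM in the LAT experiment. B cell and myeloid markers were higher in the magnetically isolated cells: at 0 h, 6 B cell markers summed to 62.3 to 559 CPM and 6 myeloid markers to 55.8 to 406 CPM there, against 1.43 to 4.94 and 2.77 to 4.15 CPM in the sorted cells. By 20 h these sums had fallen to 1.21 to 5.08 CPM (B cell) and 0.286 to 1.02 CPM (myeloid) in the CD5/CD6 experiment. Other markers did not all follow. In WT cells at 0 h, CD8 T cell sums overlapped between the experiments (29.9 to 85.1 and 30.3 to 35.0 CPM), as did gamma delta T cell sums (35.1 to 37.9 and 31.1 to 44.7 CPM). Regulatory T cell sums were lower in the CD5/CD6 experiment (32.8 to 41.5 against 60.6 to 91.1 CPM).

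In WT cells, *Cd5* and *Cd6* were abundant before stimulation and rose by less than 3-fold, whereas *Alcam* started at 0.805 to 4.24 CPM and rose 12.6- to 49.6-fold, and *A430093F15Rik* rose 4.31- to 5.21-fold. At 0 h, the level per kb in WT cells from the LAT experiment was 124 ± 6.04 CPM per kb for *Cd5* (mean ± SD, n = 3), 80.4 ± 3.18 for *Cd6*, 5.00 ± 0.429 for *A430093F15Rik*, and 0.126 ± 0.0124 for *Alcam*. At 20 h, the levels were 235 ± 13.7, 136 ± 9.16, 21.6 ± 1.53, and 3.69 ± 0.0986 CPM per kb in the same order. This order held at all 3 times in the WT cells of both experiments, with neighbours in it further apart than their SDs. Adjusted p values are those of the edgeR quasi-likelihood test, adjusted over all genes tested after Benjamini and Hochberg, and a gene was called at an adjusted p under 0.05. Fold changes are log2 values with their SE.

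CPM of *Cd5*, the first receptor, in the 3 WT libraries of the LAT experiment was 621, 633, and 577 at 0 h, 1617, 1687, and 1335 at 4 h, and 1090.5, 1225, and 1163 at 20 h. It was lowest at 0 h and highest at 4 h, with no overlap between times in these TMM-scaled levels. Between 0 h and 4 h it rose by a log2 fold change of 1.34 ± 0.15 (adjusted p = 2.9e-18), a comparison in which 29% of all genes were called, and at 20 h it stood 0.93 ± 0.15 above 0 h (adjusted p = 2.12e-09, with 34.7% of genes called). From 4 h to 20 h it fell by 0.41 ± 0.15 on the log2 scale (adjusted p = 0.0172, with 29.5% called); with libraries scaled by their totals alone, which moved the median gene by 0.20 here, the change was -0.21 (adjusted p = 0.329), and without replicate 1 it was -0.27 (adjusted p = 0.454). Bulk RNA cannot tell fewer cells of a type from less RNA per cell.

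In the WT libraries of the CD5/CD6 experiment, *Cd5* was at 609, 602, and 657 CPM at 0 h, 1684, 1399.6, and 1447 at 4 h, and 1004, 1257, and 1139.6 at 20 h. The 3 times were again separate, in the same order. The log2 fold change was 1.28 ± 0.32 at 4 h (adjusted p = 0.000814, with 28.5% of genes called) and 0.86 ± 0.32 at 20 h (adjusted p = 0.0231, with 37.9% called). From 4 h to 20 h the change of -0.41 ± 0.32 was not called (adjusted p = 0.39, with 30.5% called). The spread of this fit includes the 0 h libraries labelled Cd5-/- 2 and Cd6-/- 2, and without both the fall from 4 h to 20 h was called (-0.44, adjusted p = 0.0307).

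*Cd6*, the second receptor, was at 667, 617, and 638 CPM at 0 h, 1018, 1010.4, and 873 at 4 h, and 998, 1130.3, and 1117 at 20 h in WT cells from the LAT experiment. Levels at 0 h lay below all later ones, and those at 4 h and 20 h overlapped. *Cd6* rose by 0.59 ± 0.15 at 4 h (adjusted p = 0.00027) and by 0.76 ± 0.15 at 20 h (adjusted p = 1.51e-06), whereas its change from 4 h to 20 h was 0.16 ± 0.15 (adjusted p = 0.506).

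CPM of *Cd6* in WT cells from the CD5/CD6 experiment was 661, 641, and 599.7 at 0 h, 1012, 888, and 867 at 4 h, and 937, 1131, and 1044 at 20 h, again with 0 h below both other times. It rose by 0.71 ± 0.26 at 20 h (adjusted p = 0.0204). At 4 h the change of 0.54 ± 0.26 was not called (adjusted p = 0.115), but was called once both 0 h libraries that went against their labels were left out (0.52, adjusted p = 0.00385). The change from 4 h to 20 h was 0.17 ± 0.26 (adjusted p = 0.75). The 20 h calls of *Cd5* and *Cd6* in this experiment were lost with DESeq2 (adjusted p = 0.163 and 0.118).

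*Alcam*, which encodes the CD6 ligand, had the widest range of the 4 genes. In WT cells from the LAT experiment it was at 0.980, 0.909, and 0.805 CPM at 0 h, 51.4, 41.7, and 41.2 at 4 h, and 26.2, 27.0, and 25.6 at 20 h. The 3 times were separate, with 22 to 25 reads per library at 0 h. *Alcam* rose 49.6-fold at 4 h (log2 fold change 5.63 ± 0.26, adjusted p = 2.57e-104) and was 29.2-fold above 0 h at 20 h (4.87 ± 0.25, adjusted p = 7.91e-81). It fell by 0.77 ± 0.20 between 4 h and 20 h (adjusted p = 0.000462), a call lost with DESeq2 (adjusted p = 0.0993) and without replicate 1 (-0.58, adjusted p = 0.131).

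In the WT libraries of the CD5/CD6 experiment, *Alcam* was at 1.50, 1.45, and 4.24 CPM at 0 h, 90.6, 71.0, and 58.2 at 4 h, and 30.5, 35.3, and 26.8 at 20 h. The third library was the highest at 0 h and the lowest at both later times. *Alcam* rose 30.0-fold at 4 h (4.91 ± 0.27, adjusted p = 1.36e-26) and 12.6-fold at 20 h (3.66 ± 0.26, adjusted p = 4.24e-21), and fell by 1.25 ± 0.23 between 4 h and 20 h (adjusted p = 4.4e-06). Without replicate 3 in any group, the rises were 5.78 at 4 h (adjusted p = 5.03e-178) and 4.48 at 20 h (adjusted p = 2.52e-113). At 0 h, that library also had summed B cell, myeloid, and dendritic cell markers of 559, 310.0, and 16.8 CPM, against 153, 134, and 7.48 CPM in the first and 96.7, 119, and 8.52 CPM in the second; their part in the 0 h level of *Alcam* was not tested. At 20 h, the B cell, myeloid, and dendritic cell sums were at most 5.08, 1.02, and 2.18 CPM in any library of this experiment. *Alcam* stood at 26.8 CPM or more in all 12 libraries of that time, and the part of other cells in this level was not tested.

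*A430093F15Rik*, the noncoding gene of unknown role, rose early and stayed up. Its CPM in WT cells from the LAT experiment was 14.2, 16.9, and 15.7 at 0 h, 94.3, 79.4, and 68.7 at 4 h, and 62.9, 66.5, and 72.3 at 20 h. The 0 h libraries lay below all others, and those at 4 h and 20 h overlapped. It rose by 2.37 ± 0.18 at 4 h (adjusted p = 5.91e-39) and 2.11 ± 0.18 at 20 h (adjusted p = 1.42e-31), with a change of -0.26 ± 0.17 between the later times (adjusted p = 0.274).

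In the CD5/CD6 experiment, WT cells held *A430093F15Rik* at 14.6, 20.8, and 14.8 CPM at 0 h, 91.7, 74.3, and 95.4 at 4 h, and 68.7, 82.2, and 99.9 at 20 h, with the same separation of 0 h from the later times. The log2 fold changes were 2.38 ± 0.19 at 4 h (adjusted p = 7.55e-18), 2.32 ± 0.19 at 20 h (adjusted p = 1.24e-17), and -0.06 ± 0.18 from 4 h to 20 h (adjusted p = 1). In each experiment 4 of 4 members were therefore called as higher at 20 h than at 0 h. Of all genes, 37.9% (CD5/CD6 experiment) and 34.7% (LAT experiment) were called in that comparison, in either direction. In the CD5/CD6 experiment, the calls of *Cd5* and *Cd6* were lost with DESeq2 and with library totals alone.

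Since both receptors rose, their balance was taken as the ratio of *Cd5* to *Cd6* in CPM per kb within each library, which does not depend on how libraries are scaled. In WT cells from the CD5/CD6 experiment the ratio was 1.49, 1.52, and 1.77 at 0 h, 2.69, 2.55, and 2.70 at 4 h, and 1.73, 1.80, and 1.77 at 20 h. In WT cells from the LAT experiment it was 1.51, 1.66, and 1.46 at 0 h, 2.57, 2.70, and 2.47 at 4 h, and 1.77, 1.75, and 1.68 at 20 h. The 4 h libraries stood above all others in both experiments. In Lat-/- cells the ratio was 1.34, 1.38, and 1.21 at 0 h, 1.85, 1.87, and 1.67 at 4 h, and 1.86, 1.83, and 1.96 at 20 h, so that 4 h and 20 h overlapped there. Against WT cells, the Lat-/- ratio was lower at 0 h and 4 h and higher at 20 h, in 3 of 3 libraries without overlap; the log2 differences were -0.23, -0.52, and 0.12. With 3 libraries against 3, the exact two-sided permutation test cannot go below p = 0.1, the value it gave in 10 of 12 comparisons (0.12 after adjustment over the 12).

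**Figure D1:**
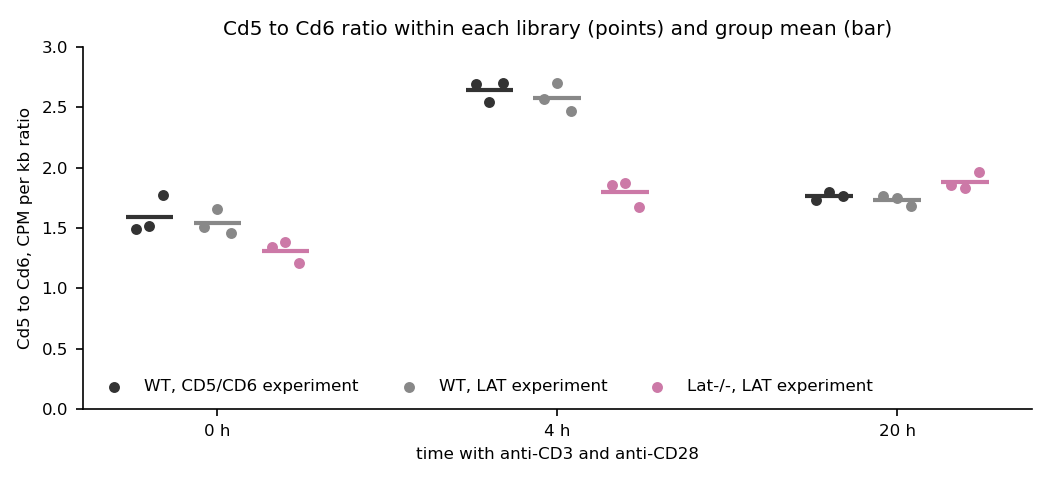
Ratio of *Cd5* to *Cd6* (vertical axis, ratio of CPM per kb within a library) at 0 h, 4 h, and 20 h of stimulation (horizontal axis) in WT cells of both experiments and in Lat-/- cells. Points are libraries and bars are means of 3; WT means rose from 1.59 and 1.54 at 0 h to 2.65 and 2.58 at 4 h, whereas the Lat-/- mean was 1.80 at 4 h.

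The LAT experiment asked how far the levels depend on LAT. *Lat* itself, on chromosome 7, was at 292, 214, and 241 CPM at 0 h, 314, 351, and 262 at 4 h, and 97.3, 105, and 92.2 at 20 h in WT cells. The Lat-/- libraries held 15.2, 11.6, and 19.1 CPM at 0 h, 6.79, 5.69, and 11.3 at 4 h, and 11.7, 9.91, and 17.2 at 20 h, which was 6.11, 4.65, and 7.67% of the WT mean at 0 h, 2.20, 1.84, and 3.65% at 4 h, and 11.9, 10.1, and 17.5% at 20 h. All 9 Lat-/- libraries thus followed their labels, and the third one held the most *Lat* at each time. For reference, the 0 h WT level of *Lat* was 704 ± 76.9 CPM (mean ± SD, n = 3) in the CD5/CD6 experiment and 249 ± 39.8 CPM in the LAT experiment, whose tables were counted separately.

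All 4 members were lower in Lat-/- than in WT cells, *Cd5*, *Cd6*, and *A430093F15Rik* at each time and *Alcam* at 4 h and 20 h. *Cd5* in the Lat-/- libraries was at 266, 239, and 241 CPM at 0 h, 443, 428, and 345 at 4 h, and 315, 286, and 466 at 20 h. Even the highest of these 9 libraries was below the lowest WT library at 0 h. *Cd5* was 2.45-fold lower at 0 h (-1.30 ± 0.15, adjusted p = 1.88e-15), 3.81-fold lower at 4 h (-1.93 ± 0.15, adjusted p = 1.89e-35), and 3.26-fold lower at 20 h (-1.71 ± 0.15, adjusted p = 9.71e-29). The shares of all genes called in these comparisons were 1.59%, 23.9%, and 35.2%.

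*Cd6* in Lat-/- cells was at 321, 279, and 321 CPM at 0 h, 387, 369.8, and 334 at 4 h, and 274, 253, and 384 at 20 h. The 4 h libraries lay above those of 0 h, the 20 h libraries overlapped both, and each lay below all WT libraries. *Cd6* was 2.09-fold lower than in WT cells at 0 h (-1.06 ± 0.15, adjusted p = 3.41e-10), 2.66-fold at 4 h (-1.41 ± 0.15, adjusted p = 1.04e-19), and 3.56-fold at 20 h (-1.83 ± 0.15, adjusted p = 1.21e-32).

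*A430093F15Rik* had the largest difference of the 4 genes at each time. Its CPM in Lat-/- cells was 1.48, 0.746, and 1.71 at 0 h, 14.1, 11.3, and 11.9 at 4 h, and 4.75, 4.42, and 13.1 at 20 h, from 30, 16, and 42 reads at 0 h. Stimulated Lat-/- libraries did not reach the WT level of 0 h, whose lowest library was at 14.2 CPM. The gene was 11.8-fold lower than in WT cells at 0 h (-3.56 ± 0.22, adjusted p = 8.38e-58), 6.48-fold at 4 h (-2.70 ± 0.18, adjusted p = 1.34e-47), and 9.03-fold at 20 h (-3.17 ± 0.19, adjusted p = 3.88e-63).

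*Alcam* in Lat-/- cells was at 0.247, 0.186, and 0.732 CPM at 0 h, 8.90, 5.11, and 9.57 at 4 h, and 3.39, 1.67, and 7.95 at 20 h. All were below the WT libraries of the same time, with only 5, 4, and 18 reads at 0 h. *Alcam* was 5.67-fold lower at 4 h (-2.50 ± 0.21, adjusted p = 6.64e-31) and 6.07-fold lower at 20 h (-2.60 ± 0.21, adjusted p = 2.28e-32). At 0 h the difference of -1.14 ± 0.34 did not pass (adjusted p = 0.0563), but did with the replicate number as a block (-1.19, adjusted p = 0.0401) and without the third libraries (-2.11, adjusted p = 0.00115). Without the third libraries, the differences at 20 h were larger, -3.42 for *Alcam* (adjusted p = 6.22e-39) and -3.81 for *A430093F15Rik* (adjusted p = 3.95e-64).

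Some markers of other cells differed between the genotypes beside these results. The summed regulatory T cell markers *Foxp3* and *Ikzf2*, both called as lower at each time, were at 19.5 to 34.8 CPM in Lat-/- against 60.6 to 91.1 CPM in WT cells at 0 h, 7.04 to 29.0 against 50.1 to 71.2 CPM at 4 h, and 4.53 to 10.6 against 34.5 to 36.9 CPM at 20 h. The 4 gamma delta T cell markers summed to 14.4 to 16.4 against 31.1 to 44.7 CPM at 0 h and 6.50 to 10.3 against 15.6 to 22.4 CPM at 4 h, with 3 of 4 called as lower at both times. At 20 h the order was the opposite, 8.14 to 10.7 against 5.86 to 6.71 CPM, with 1 of 4 called as higher. Of the 6 myeloid markers, whose sum was 11.3 to 15.4 against 0.0369 to 0.428 CPM at 20 h, up to 4 were at 0 in Lat-/- libraries. The part of these markers in the lower level of the 4 members was not tested. The summed CD4 T cell markers were 8672 to 9776 CPM in Lat-/- and 8814 to 10452 CPM in WT cells at 0 h, and 8973 to 10219 and 4563 to 4751 CPM at 20 h.

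**Figure D2:**
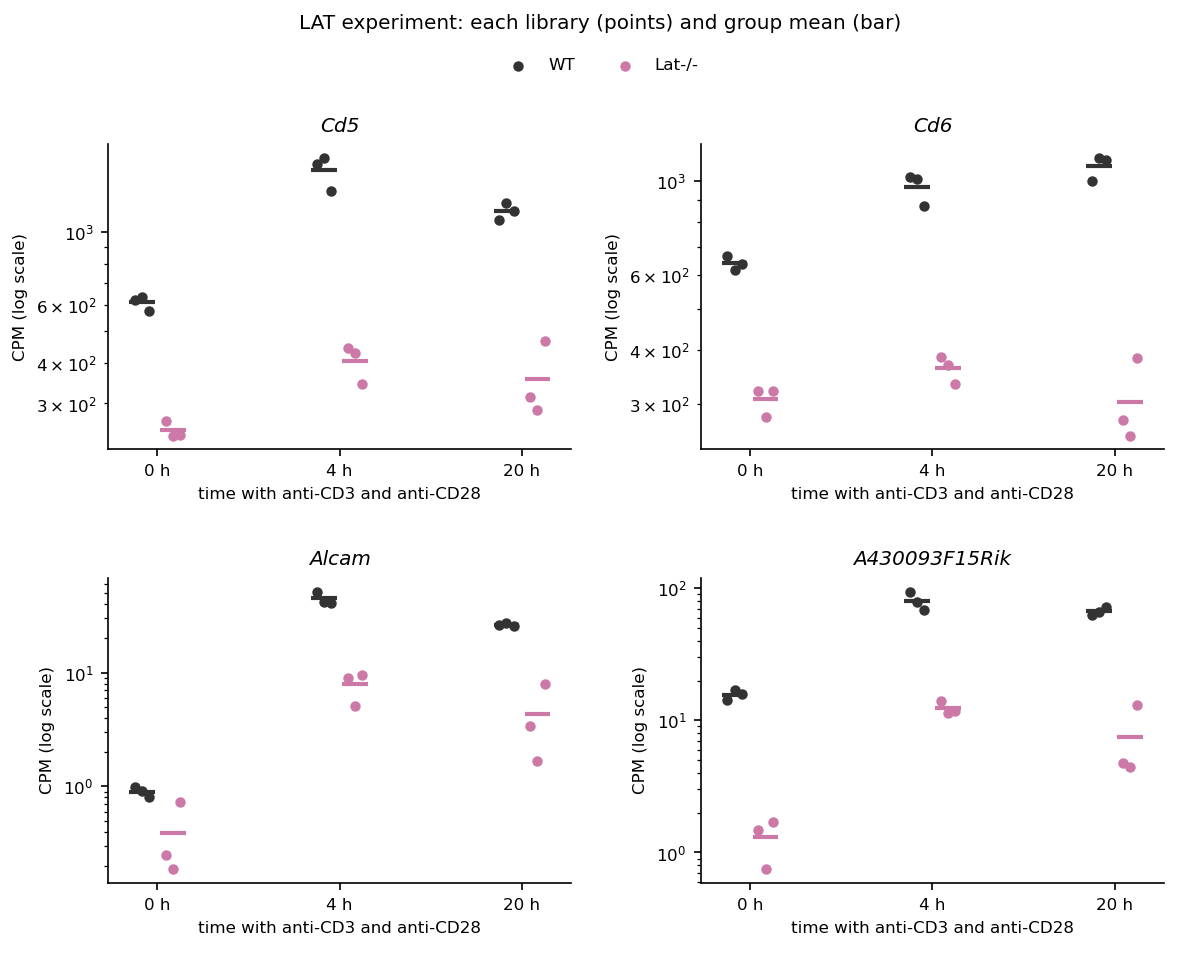
Levels of the 4 members in the LAT experiment (vertical axes, CPM on a log scale) at 0 h, 4 h, and 20 h of stimulation (horizontal axes). Points are libraries and bars are means of 3; WT points (black) lie above the Lat-/- points (pink) of the same time in all panels, and the third Lat-/- library is the highest of its group at 20 h in all 4 genes.

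Within Lat-/- cells, *Cd5*, *Alcam*, and *A430093F15Rik* rose at both times after stimulation, and *Cd6* was called at neither. *Cd5* rose by 0.71 ± 0.15 at 4 h (adjusted p = 2.75e-05, with 15.4% of genes called) and by 0.52 ± 0.15 at 20 h (adjusted p = 0.00612, with 10.7% called). The 20 h rise rested on the third library, without which it was 0.27 (adjusted p = 0.331). *Cd6* did not pass at either time (0.24 ± 0.15 and -0.017 ± 0.15, adjusted p = 0.34 and 1). *Alcam* rose 19.3-fold at 4 h (4.27 ± 0.29, adjusted p = 3.6e-47) and 10.6-fold at 20 h (3.41 ± 0.30, adjusted p = 3.32e-28), and without the third libraries its 4 h rise was 5.00 (adjusted p = 1.13e-37). *A430093F15Rik* rose 9.40-fold at 4 h (3.23 ± 0.22, adjusted p = 8.04e-48) and 5.62-fold at 20 h (2.49 ± 0.22, adjusted p = 1.16e-27).

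Between 4 h and 20 h in Lat-/- cells, where 10.1% of genes were called, *Alcam* and *A430093F15Rik* fell by 0.87 ± 0.21 and 0.74 ± 0.18 (adjusted p = 0.00111 and 0.000885). The changes of *Cd5* and *Cd6* were -0.19 ± 0.15 and -0.26 ± 0.15 (adjusted p = 0.556 and 0.34). The calls of *Alcam* and *A430093F15Rik* were lost without replicate 1 (-0.61 and -0.40, adjusted p = 0.369 and 0.657), without replicate 2 (-0.67 and -0.51, adjusted p = 0.0697 and 0.13), and with DESeq2 (adjusted p = 0.103 and 0.0713). Without replicate 3, those falls were -1.49 and -1.46 (adjusted p = 3.16e-07 and 1.13e-09), and those of *Cd5* and *Cd6* were called too (-0.51 and -0.50, adjusted p = 0.00784 and 0.0119).

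Whether the responses differed was tested as the interaction of genotype and time, Lat-/- minus WT. At 4 h against 0 h, where 15% of genes were called, the log2 response was smaller in Lat-/- cells for *Cd5* (-0.64 ± 0.21, adjusted p = 0.0168) and *Alcam* (-1.36 ± 0.42, adjusted p = 0.0113) and larger for *A430093F15Rik* (0.86 ± 0.28, adjusted p = 0.015). The larger value for *A430093F15Rik* is a ratio from a low start: its mean went from 1.31 to 12.4 CPM in Lat-/- and from 15.6 to 80.8 CPM in WT cells. For *Cd6* the difference of response was -0.35 ± 0.21 (adjusted p = 0.329). At 20 h against 0 h, with 26.3% of genes called, the response was smaller for *Cd6* (-0.77 ± 0.21, adjusted p = 0.00109) and *Alcam* (-1.46 ± 0.43, adjusted p = 0.00322), and the differences of *Cd5* and *A430093F15Rik* were -0.41 ± 0.21 and 0.38 ± 0.28 (adjusted p = 0.146 and 0.392). At 20 h against 4 h, with 19.6% called, 0 of 4 members passed by this test (unadjusted p = 0.0417 for *Cd6* and above 0.05 for the others), with differences of 0.23 ± 0.21 for *Cd5*, -0.42 ± 0.21 for *Cd6*, -0.10 ± 0.29 for *Alcam*, and -0.48 ± 0.25 for *A430093F15Rik*.

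These calls were less steady than those of the level. The difference of *Alcam* at 4 h was -0.60 without replicate 3 (adjusted p = 0.777) and that of *A430093F15Rik* was 0.60 without replicate 2 (adjusted p = 0.248) and 1.08 without replicate 1 (adjusted p = 0.0583), and neither passed with DESeq2 (adjusted p = 0.0845 and 0.111). The difference of *Cd5* at 4 h was -0.59 without replicate 1 (adjusted p = 0.252) and -0.48 with library totals alone (adjusted p = 0.0883), that of *Alcam* at 20 h was -1.31 without replicate 3 (adjusted p = 0.125), and that of *A430093F15Rik* at 20 h against 4 h was -1.06 without replicate 3 (adjusted p = 0.00194). Without replicate 3, the differences of *Cd5* at 20 h against 0 h (-0.62, adjusted p = 0.0149) and of *Cd6* at 20 h against 4 h (-0.59, adjusted p = 0.0319) were called too.

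**Figure D3:**
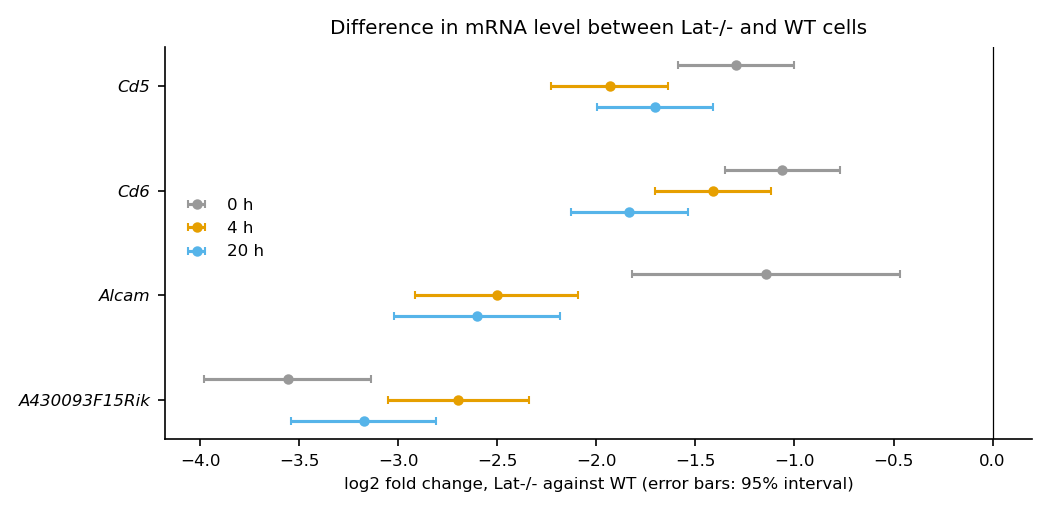
Log2 fold change of Lat-/- against WT cells (horizontal axis) for the 4 members at 0 h, 4 h, and 20 h. Points are edgeR estimates with bars for their 95% interval; all lie left of 0, from -1.06 for *Cd6* to -3.56 for *A430093F15Rik*, both at 0 h.

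The other genes of the pathway were described as 4 lists, beside the shares of all genes called given above; the median log2 fold change over all genes tested was 0 in every comparison. Of 10 genes for signaling partners of CD6, 4 rose and 5 fell at 4 h in WT cells from the LAT experiment (median -0.38), and 1 rose and 7 fell at 20 h (median -0.59). At 4 h, *Lcp2*, which encodes the adaptor SLP-76, rose by 2.03 and *Zap70*, which encodes the TCR-associated kinase, by 1.69, while *Arhgap45* fell by 1.95 and *Grap2*, which encodes the adaptor GADS, by 1.61. In Lat-/- against WT cells, 1 of 10 was higher at 0 h (*Grap2*, 0.54), 4 were higher and 4 lower at 4 h (median -0.045), and 6 were higher and 2 lower at 20 h (median 0.55). At 20 h these were led by *Arhgap45* (2.65), *Grap2* (1.96), *Grk6* (1.16), and *Zap70* (-1.04).

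Of 9 genes for proteins linked to CD5, 3 rose and 4 fell at 4 h in WT cells from the LAT experiment (median 0.037), and 1 rose and 3 fell at 20 h (median -0.28); *Ubash3a* is in both partner lists. *Cblb*, which encodes a ubiquitin ligase that restrains T cell activation, rose by 1.97 at 4 h, *Mybbp1a* by 1.61, and *Fyn*, which encodes a Src family kinase, by 1.29. Between genotypes, *Ptpn6*, which encodes the phosphatase SHP-1, was lower in Lat-/- cells at 0 h (-0.79) as the only one of the 9. At 4 h, 2 were higher and 4 lower (median -0.36), and at 20 h, 4 were higher and 3 lower (median 0.023), with *Mybbp1a* at -2.38, *Ptpn6* at -1.74, *Cbl* at 1.09, and *Cblb* at 1.08.

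Among 6 other reported ligands of CD6 or CD5 and relatives of ALCAM, 2 rose and 2 fell at 4 h (median -0.34) and 3 rose and 2 fell at 20 h (median -0.19) in WT cells from the LAT experiment. *Mcam*, which encodes the ALCAM-related adhesion molecule CD146, rose by 4.00 at 4 h, and *Lgals3*, which encodes galectin-3, by 5.10 at 20 h. *Cd72*, a gene mainly of B cells whose product was proposed to bind CD5, fell by 2.77 at 4 h. At 20 h, 3 of 6 were lower in Lat-/- cells and none was called as higher (median -2.45), namely *Lgals3* (-4.19), *Bcam* (-3.24), and *Mcam* (-3.11). At 4 h, 2 were higher and 2 lower (median -0.43), and at 0 h 0 of 6 passed.

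Of 6 other genes of the SRCR family, 5 fell at 4 h (median -2.96) and 4 at 20 h (median -5.33) in WT cells from the CD5/CD6 experiment, where 6 of 6 myeloid markers fell at both times. Among them, *Cd163* and *Marco*, which are macrophage receptor genes, fell by 3.44 and 2.68 at 4 h. In the sorted WT cells from the LAT experiment 2 of 6 fell at 4 h, and at 20 h 1 rose and 3 fell. In Lat-/- against WT cells at 20 h, 3 were higher and 1 lower, led by *Dmbt1* (9.22), beside the higher myeloid marker sum given above, whose part was not tested. In WT cells from the CD5/CD6 experiment, the CD6 partners gave 4 rises and 5 falls at 4 h and 2 and 7 at 20 h, the CD5 partners 3 and 2, then 1 and 4, and the ligands 1 and 3 at both times. As labelled, none of the genes in these 4 lists was called in Cd5-/-, Cd6-/-, or Cd5-/-Cd6-/- cells against WT cells at 0 h, 4 h, or 20 h, where at most 0.0867% of all genes were called; without both 0 h libraries that went against their labels, 1 was, the macrophage gene *Cd5l*, which was lower in Cd5-/- cells at 0 h.

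In the CD5/CD6 experiment, the targeted gene was read first. In the Cd5-/- libraries, *Cd5* stood at 6.27, 9.95, and 4.08% of the WT mean at 4 h and 1.11, 1.23, and 1.00% at 20 h, and at 20.6, 116, and 16.9% in the libraries labelled 1, 2, and 3 at 0 h. The share left in the 8 libraries that followed their label was thus largest at 0 h and smallest at 20 h. In the Cd6-/- libraries, *Cd6* stood at 33.8, 27.1, and 24.9% of the WT mean at 4 h and 29.3, 30.4, and 24.8% at 20 h, and at 55.1, 189.7, and 39.7% in the libraries labelled 1, 2, and 3 at 0 h. Most of the *Cd6* exons lie outside the deleted part, so this level does not test the loss of the protein. The log2 difference from WT cells at 0 h was -0.97 ± 0.32 for *Cd5* in Cd5-/- (adjusted p = 0.605) and -0.076 ± 0.26 for *Cd6* in Cd6-/- cells (adjusted p = 1) as labelled, and -2.42 (adjusted p = 1.06e-19) and -1.10 (adjusted p = 2.22e-05) without both libraries that went against their labels.

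Each Cd5-/-Cd6-/- library held 0.0209 to 0.0787% of the WT mean of *Cd5* and 0.0432 to 0.0943% of that of *Cd6*. The shares of all genes called against WT cells at 0 h, 4 h, and 20 h were 0.0619%, 0.0867%, and 0.0217% for Cd5-/-, 0%, 0.0031%, and 0.0186% for Cd6-/-, and 0.0279%, 0.0434%, and 0.0465% for Cd5-/-Cd6-/- cells. For Cd6-/- cells at 0 h this was 0 genes by edgeR, with 707 at an unadjusted p under 0.05. Without both libraries that went against their labels, the shares were 0.665%, 0.478%, and 0.0687% for Cd5-/-, 0.0656%, 0.125%, and 0.0437% for Cd6-/-, and 0.0687%, 0.112%, and 0.0936% for Cd5-/-Cd6-/- cells. All these comparisons share the same WT libraries. The 4 gamma delta T cell markers moved with genotype: their summed level at 0 h, 4 h, and 20 h was 35.1 to 37.9, 20.7 to 22.5, and 4.50 to 6.60 CPM in WT, 37.4 to 101, 56.9 to 62.0, and 12.1 to 13.8 CPM in Cd5-/-, 31.7 to 88.3, 16.2 to 30.1, and 3.98 to 6.58 CPM in Cd6-/-, and 82.7 to 125, 61.8 to 86.2, and 12.6 to 19.9 CPM in Cd5-/-Cd6-/- libraries. The lowest Cd5-/- sum at 0 h was that of the library labelled Cd5-/- 2 and the highest Cd6-/- sum that of the library labelled Cd6-/- 2; the other libraries were at 91.8 and 101 CPM (Cd5-/-) and 31.7 and 63.8 CPM (Cd6-/-). As labelled, at 0 h, 4 h, and 20 h, 1, 4, and 1 of the 4 were called as higher for Cd5-/- and 3, 4, and 3 for Cd5-/-Cd6-/- cells, and none was called for Cd6-/- cells. Without both libraries that went against their labels, both Cd5-/- and Cd5-/-Cd6-/- cells had 4, 4, and 3 called as higher, and Cd6-/- cells had 0, 1, and 0. The part of these markers in the differences of the members was not tested.

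*Cd6* was measured in the absence of *Cd5* at 1298, 329, and 1084 CPM at 0 h in the libraries labelled Cd5-/-, 1245, 1048, and 1133 CPM at 4 h, and 1187, 1309, and 1331 CPM at 20 h. Apart from the library labelled 2 at 0 h, these lay above the WT libraries of the same time. As labelled, *Cd6* differed from WT cells by 0.51 ± 0.26 at 0 h, 0.31 ± 0.26 at 4 h, and 0.30 ± 0.26 at 20 h, and 0 of 3 differences passed (adjusted p = 1 each, with unadjusted values of 0.0489, 0.231, and 0.246). Leaving out both 0 h libraries that went against their labels, *Cd6* was higher at 0 h by 0.90 (adjusted p = 0.000238). The 95% intervals of the differences at 4 h and 20 h were -0.19 to 0.81 and -0.20 to 0.80.

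*Cd5* in the absence of intact *Cd6* was at 724, 172, and 719 CPM at 0 h in the libraries labelled Cd6-/-, 1644, 1299.8, and 1133 at 4 h, and 1045, 1213, and 1030.5 at 20 h. At 0 h the libraries labelled 1 and 3 lay above the WT libraries and the library labelled 2 below them, and at 4 h and 20 h the groups overlapped. The differences from WT cells were -0.21 ± 0.32, -0.15 ± 0.31, and -0.048 ± 0.31, none of which passed (adjusted p = 1 each), with 95% intervals of -0.83 to 0.41, -0.77 to 0.46, and -0.67 to 0.57. Without both 0 h libraries that went against their labels, the sign of the 0 h difference turned, to 0.19, and it was not called either (adjusted p = 0.984).

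*A430093F15Rik* was at 25.4, 22.0, and 32.9 CPM at 0 h, 136, 111, and 122 at 4 h, and 89.8, 91.0, and 126 at 20 h in the libraries labelled Cd5-/-. All 3 libraries exceeded the 3 WT libraries at 0 h and at 4 h, and they overlapped them at 20 h. The differences were 0.68 ± 0.19 at 0 h (adjusted p = 0.211), 0.50 ± 0.18 at 4 h (adjusted p = 0.746), and 0.29 ± 0.18 at 20 h (adjusted p = 1). Leaving out both 0 h libraries that went against their labels, the 0 h difference was 0.79 (adjusted p = 0.0151), and without replicate 3 the 4 h difference was 0.57 (adjusted p = 0.0113).

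In the libraries labelled Cd6-/-, *A430093F15Rik* was at 20.8, 28.1, and 27.4 CPM at 0 h, 91.6, 77.6, and 66.3 at 4 h, and 80.0, 85.9, and 85.8 at 20 h. At 0 h the lowest of these was level with the highest WT library, at 20.8 CPM each, and later they overlapped the WT libraries. The differences of 0.60 ± 0.19, -0.15 ± 0.18, and 0.0057 ± 0.18 did not pass (adjusted p = 1 each), nor did the 0 h difference of 0.50 without both libraries that went against their labels (adjusted p = 0.981).

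In Cd5-/-Cd6-/- cells, whose deletion takes away the whole gene, *A430093F15Rik* was counted with 0, 0, and 2 reads at 0 h, 3, 1, and 0 at 4 h, and 0, 1, and 0 at 20 h, against 439 to 2912 reads in the WT libraries. Set against the WT mean, the pooled reads gave a level 645-fold lower at 0 h (95% counting interval 179 to 5327), 2285-fold lower at 4 h (892 to 8385), and 8022-fold lower at 20 h (1439.8 to 316858). These intervals cover counting error only. The folds are approximate, since the WT mean included TMM factors and the pooled reads were divided by library totals without them.

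The ligand gene *Alcam* was at 0.703, 2.18, and 1.38 CPM at 0 h, 75.5, 65.1, and 56.3 at 4 h, and 33.9, 37.9, and 28.7 at 20 h in the libraries labelled Cd5-/-. Those labelled Cd6-/- were at 1.51, 1.43, and 3.04 CPM at 0 h, 72.3, 61.1, and 64.4 at 4 h, and 36.8, 41.1, and 33.5 at 20 h. Cd5-/-Cd6-/- cells were at 2.00, 2.76, and 2.84 CPM at 0 h, 67.3, 60.0, and 56.5 at 4 h, and 38.3, 49.2, and 31.0 at 20 h. At 4 h and 20 h all 3 genotypes overlapped the WT libraries. At 0 h Cd6-/- and Cd5-/-Cd6-/- libraries did too, whereas the libraries labelled Cd5-/- 1 and 3 lay below all WT libraries and the library labelled Cd5-/- 2 among them. All genotypes showed the high 4 h and intermediate 20 h level of WT cells.

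As labelled, 0 of 9 *Alcam* differences from WT cells passed, the smallest adjusted p being 0.714 (Cd5-/- at 0 h, -0.80 ± 0.27). Their estimates were -0.16 and 0.12 at 4 h and 20 h in Cd5-/-, -0.34, -0.15, and 0.27 at the 3 times in Cd6-/-, and, for Cd5-/-Cd6-/- cells, 0.058, -0.26, and 0.36. At 4 h and 20 h all 6 of their 95% intervals lay between -0.70 and 0.80. Leaving out both 0 h libraries that went against their labels, *Alcam* was lower in Cd5-/- than in WT cells at 0 h, with a log2 fold change of -1.22 (adjusted p = 0.00313); 6 of 6 B cell, 4 of 6 myeloid, and 3 of 6 dendritic cell markers were then called as lower too. The 0 h difference of Cd6-/- cells was -0.18 in that fit (adjusted p = 1). In the library labelled Cd5-/- 1, where *Alcam* was lowest (26 reads), the B cell, myeloid, and dendritic cell markers summed to 65.9, 55.8, and 2.78 CPM, against 96.7 to 559, 119 to 310.0, and 7.48 to 16.8 CPM in the WT libraries, and in the library labelled Cd5-/- 3 they summed to 93.2, 81.8, and 3.68 CPM. Their part in this difference was not tested.

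The responses to stimulation were also compared with those of WT cells by the interaction of genotype and time. The shares of all genes called at 4 h and 20 h were 0.0031% and 0.0031% for Cd5-/-, 0% and 0.0031% for Cd6-/-, and 0% and 0% for Cd5-/-Cd6-/- cells; the 1 gene called in Cd5-/- cells was *Cd5* itself, at both times (-2.91 ± 0.45 and -5.52 ± 0.48, adjusted p = 0.000385 and 9.44e-14). Where 0 genes were called by edgeR, 734 (Cd6-/- at 4 h), 671 (Cd5-/-Cd6-/- at 4 h), and 559 (Cd5-/-Cd6-/- at 20 h) had an unadjusted p under 0.05. For *Alcam* the differences of response at 4 h and 20 h, each with an adjusted p = 1, were 0.64 ± 0.35 and 0.92 ± 0.35 for Cd5-/-, 0.19 ± 0.35 and 0.61 ± 0.35 for Cd6-/-, and -0.32 ± 0.34 and 0.30 ± 0.35 for Cd5-/-Cd6-/- cells. Without replicate 2, the Cd5-/- difference of *Alcam* at 20 h was 1.596 (adjusted p = 0.0191), and without replicate 3 that of Cd5-/-Cd6-/- cells at 4 h was -1.04 (adjusted p = 0.0407). The differences of *Cd6* in Cd5-/- cells were -0.20 ± 0.36 and -0.21 ± 0.36, and those of *Cd5* in Cd6-/- cells 0.058 ± 0.45 and 0.16 ± 0.45 (adjusted p = 1 each). For *A430093F15Rik* they were -0.18 ± 0.26 and -0.39 ± 0.26 in Cd5-/- and -0.75 ± 0.26 and -0.60 ± 0.26 in Cd6-/- cells (adjusted p = 1 each).

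These responses set 4 h and 20 h against 0 h libraries that include those labelled Cd5-/- 2 and Cd6-/- 2. Without both, the differences of response at 4 h and 20 h were -1.44 and -4.06 for *Cd5* in Cd5-/- cells (adjusted p = 0.00116 and 5.93e-32), with 0.00624% and 0.0874% of all genes called. For *Alcam* they were 1.08 and 1.34 in Cd5-/- cells (adjusted p = 0.922 and 0.0564) and 0.024 and 0.45 in Cd6-/- cells. They were -0.57 and -0.60 for *Cd6* in Cd5-/-, -0.34 and -0.23 for *Cd5* in Cd6-/- (the opposite sign to the values as labelled), -0.27 and -0.50 for *A430093F15Rik* in Cd5-/-, and -0.65 and -0.49 for the same gene in Cd6-/- cells (adjusted p = 1 for each of these 4 pairs and for *Alcam* in Cd6-/- cells).

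**Figure D4:**
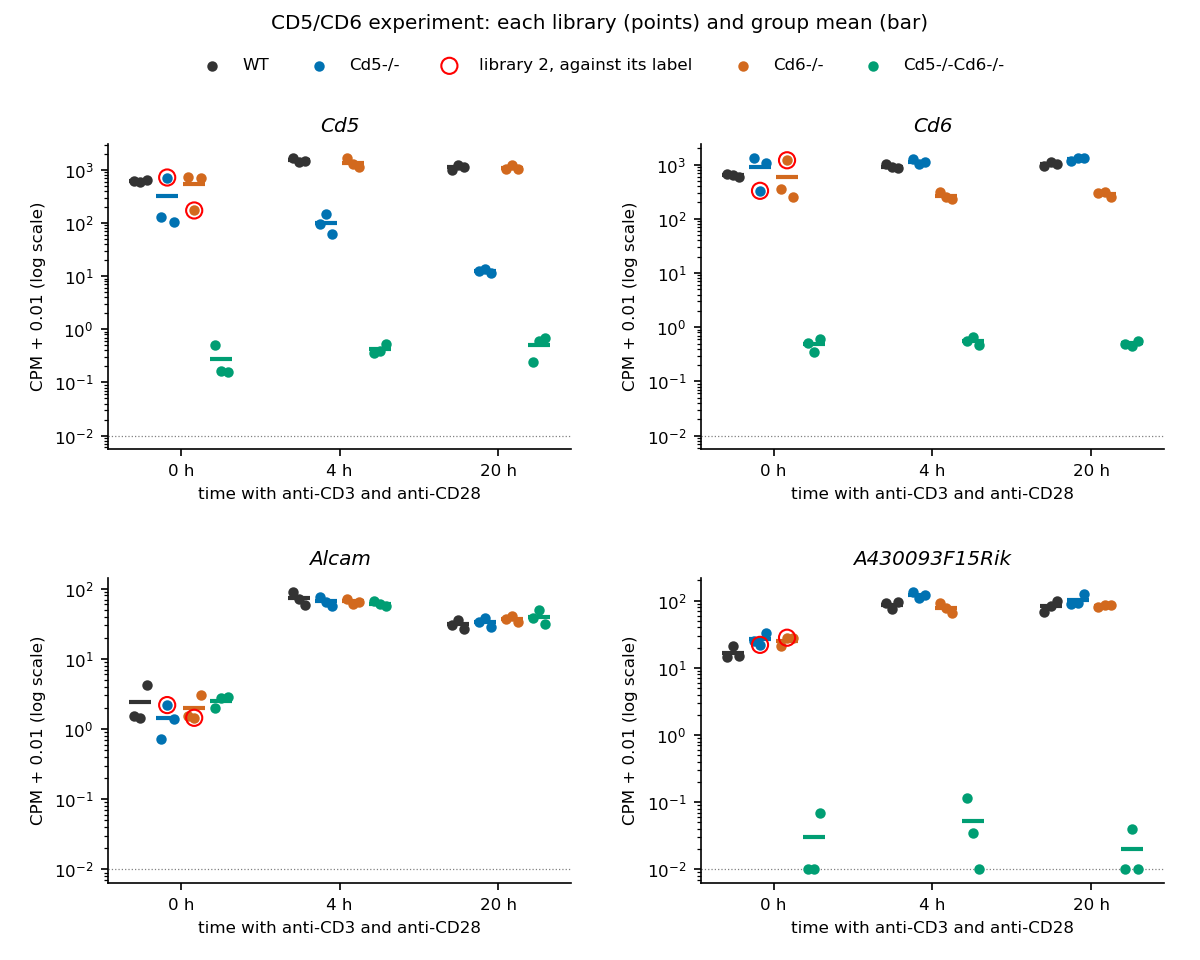
Levels of the 4 members in the CD5/CD6 experiment (vertical axes, CPM plus 0.01 on a log scale, with a dotted line for 0 reads) at 0 h, 4 h, and 20 h (horizontal axes) in 4 genotypes. Points are libraries, bars are means of 3, and red rings mark the 0 h libraries labelled Cd5-/- 2 and Cd6-/- 2; *Alcam* overlaps between all genotypes at 4 h and 20 h, and Cd5-/-Cd6-/- cells (green) hold 0 to 3 reads of *A430093F15Rik* per library.

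Because the deletions lie in 1 gene region, genes within 200 kb of the span from *Cd5* to *Cd6* were read too. Of 14 with a mean of at least 10 counts in the CD5/CD6 experiment, 2 were lower in Cd5-/-Cd6-/- than in WT cells at 20 h and none was called at 0 h or 4 h, nor in Cd5-/- or Cd6-/- cells at any time (at most 0.0867% of all genes called). The 2 were the nearest of the 14 beyond *Cd6*: *Slc15a3* (chromosome 19, 10839727 to 10859362, plus strand), which encodes an endolysosomal peptide transporter and starts 9.7 kb from *Cd6*, and *Tmem132a* (10857822 to 10869940, minus strand), which overlaps its end.

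*Slc15a3* was counted with 46, 96, and 84 reads at 0 h, 59, 230, and 92 at 4 h, and 0, 4, and 0 at 20 h in Cd5-/-Cd6-/- cells. The WT libraries held 56, 83, and 195 reads at 0 h, 68, 85, and 144 at 4 h, and 38, 26, and 38 at 20 h. At 20 h, Cd5-/- libraries held 25, 69, and 57 and Cd6-/- libraries 43, 55, and 87 reads. The gap between Cd5-/-Cd6-/- and all other libraries was thus seen at 20 h and not before; the log2 fold changes were -0.21 at 0 h, 0.21 at 4 h, and -4.65 ± 0.74 at 20 h (adjusted p = 0.000151). *Tmem132a* was counted with 3, 2, and 0 reads at 20 h in Cd5-/-Cd6-/- cells, against 38, 19, and 24 in WT, 29, 73, and 59 in Cd5-/-, and 60, 52, and 23 in Cd6-/- cells (log2 fold change -4.00 ± 0.68, adjusted p = 0.000564). Its WT libraries held only 4, 5, and 13 reads at 0 h and 7, 11, and 5 at 4 h. Cd5-/-Cd6-/- libraries held 5, 9, and 6, then 5, 15, and 1. With so few reads, a loss of *Tmem132a* before 20 h could hardly have been called. The myeloid marker sums were 55.8 to 406 CPM at 0 h, 9.41 to 55.05 CPM at 4 h, and 0.286 to 1.02 CPM at 20 h over the 12 libraries of each time, and their part in the *Slc15a3* reads at 0 h and 4 h was not tested.

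**Figure D5:**
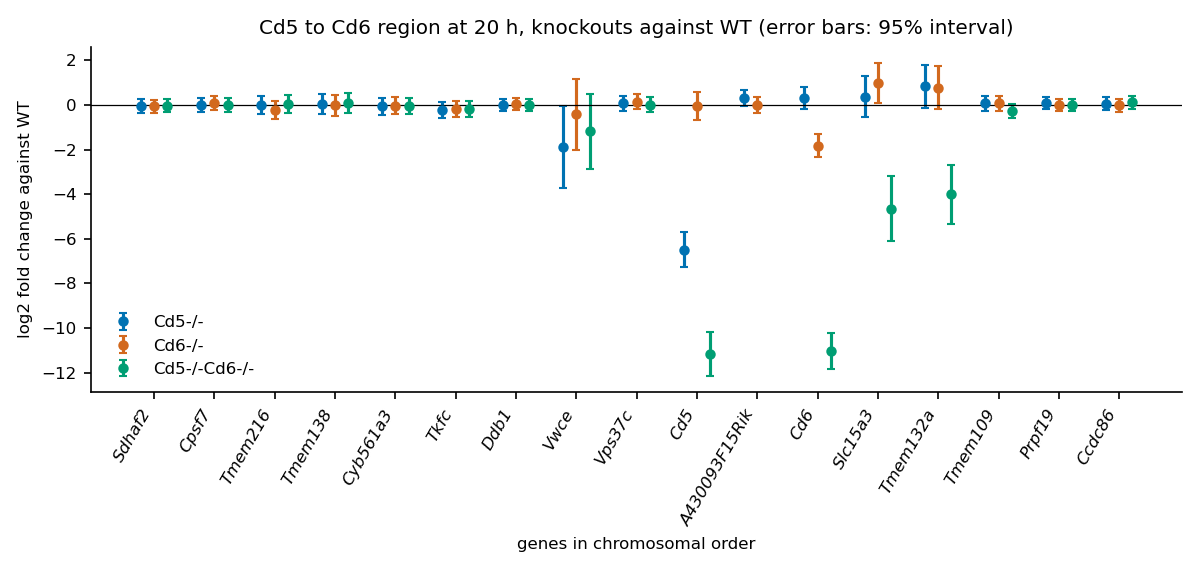
Log2 fold change against WT cells at 20 h (vertical axis) of *Cd5*, *A430093F15Rik*, *Cd6*, and the 14 neighbouring genes in chromosomal order (horizontal axis) for Cd5-/-, Cd6-/-, and Cd5-/-Cd6-/- cells, with 95% intervals. *Slc15a3* and *Tmem132a* are at -4.65 and -4.00 in Cd5-/-Cd6-/- cells; *A430093F15Rik* is not drawn for that genotype, which held 1 read of it.

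Genes with the most similar pattern were ranked by the lower of 2 Pearson correlations of log2 CPM, over the 18 libraries of the LAT experiment and over the 9 WT libraries of the CD5/CD6 experiment, among 10085 genes. The points share their libraries and the 3 times, so the values are descriptions. For *Alcam* the 3 nearest were *Chst2* (0.984), a sulfotransferase gene, *Pdcd1* (0.981), which encodes the inhibitory receptor PD-1, and *Irf4* (0.978), which encodes a transcription factor induced by TCR signaling. For *Cd5* they were *Pisd* (0.949), *Agpat5* (0.945), and *Slc1a5* (0.943), a glutamine transporter gene. For *Cd6* they were *Car12* (0.943), *Vcpkmt* (0.934), and *Slc35g1* (0.931). For *A430093F15Rik* they were *Slc9b2* (0.946), *Akr1c18* (0.939), and *Litaf* (0.938), followed by *Cd5* (0.930) in place 4. Seen from *Cd5*, *A430093F15Rik* was in place 11, *Cd6* in place 562 (0.841), and *Alcam* in place 818 (0.804).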

How the data were processed

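Poly(A) RNA from 54 samples, in 18 groups of 3 biological replicates, was sequenced with a stranded TruSeq mRNA kit. The authors deposited raw read counts per gene, 1 table for each experiment, made with bcl2fastq 2.17.1.14, STAR, and featureCounts on GRCm38; their notes also name DESeq2. All per-sample columns were used (0 unused). Of 55385 gene identifiers, 55144 were matched to GENCODE M21 for names and positions.

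Counts were fitted per experiment with edgeR 4.0.16 (R 4.3.3, limma 3.58.1), using TMM factors, 1 coefficient for each genotype and time, and all genes with at least 1 read (32290 and 27780 genes). The quasi-likelihood test was used, with Benjamini-Hochberg adjustment, and the procedure was tested on simulated data. The 2 tables were tested separately. Alternatives were DESeq2 1.42.0, RLE factors, library totals alone, filterByExpr, only the groups compared, a replicate block, each replicate left out, a fold change above 2, and leaving out both 0 h libraries that went against their labels. The main fit held no term for the replicate number, which entered only as the block of that alternative. Replicate numbers were regarded as pairing where every pair of same-numbered libraries had a correlation of deviations over 0.1. For Lat-/- against WT at 0 h it was 0.217 to 0.329. Other comparisons met this rule too, such as Cd6-/- against WT at 0 h (0.395 to 0.626). Named were the members, *Lat*, at most 4 called genes with the largest change per list and comparison, called neighbours within 200 kb whose mean was 10 counts or more, and the 3 most similar genes per member. Members and lists were chosen with earlier results of these data known. Counting precision follows depth: 3 reads correspond to 0.0663 to 0.169 CPM when scaled by library totals without TMM factors. Intervals of read ratios cover counting error only.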

Additional observations from a re-analysis of the deposited data

Results flagged for a closer look

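In 5 cases the response to stimulation differed between Lat-/- and WT cells by the interaction test (edgeR, adjusted p under 0.05), and their explanation was not tested. At 4 h against 0 h, the log2 difference, Lat-/- minus WT, was -0.636 for *Cd5* (adjusted p = 0.0168), -1.3599 for *Alcam* (adjusted p = 0.0113), and 0.8605 for *A430093F15Rik* (adjusted p = 0.015), the only positive value among the 5. At 20 h against 0 h it was -0.7728 for *Cd6* (adjusted p = 0.00109) and -1.4595 for *Alcam* (adjusted p = 0.00322). Of all genes, 15% were called by this test at 4 h and 26.3% at 20 h. At 4 h, the calls of *Alcam* and *A430093F15Rik* were lost with DESeq2 and that of *Cd5* with library totals alone. The 20 h call of *Alcam* was lost with filterByExpr and without replicate 3.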

How the results depend on the processing

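Over 120 results for the members, 1183 values under an alternative kept their side of the threshold, 38 gained a call, 51 lost one, and 0 called values turned direction. Values that were not called could turn direction. That of *Cd5* in Cd6-/- against WT cells at 0 h did so without both libraries that went against their labels. Values are log2 differences, and the cause of each change was not tested. With DESeq2, calls lost were *Cd5* 0.8093 and *Cd6* 0.6539 (CD5/CD6 experiment, WT, 20 h v 0 h), *Cd5* -2.9251 (CD5/CD6 experiment, response Cd5-/- minus WT, 4 h v 0 h), *Cd5* -0.3714 and *Alcam* -0.7238 (LAT experiment, WT, 20 h v 4 h), *Alcam* -0.8574 and *A430093F15Rik* -0.7393 (LAT experiment, Lat-/-, 20 h v 4 h), *Alcam* -1.3127 and *A430093F15Rik* 0.8862 (LAT experiment, Lat-/- minus WT response, 4 h v 0 h). With RLE factors, calls gained were *Alcam* -1.1606 (LAT experiment, Lat-/- v WT, 0 h). With filterByExpr, which tests fewer genes, calls lost were *Cd5* 0.8874 and *Cd6* 0.7329 (CD5/CD6 experiment, WT, 20 h v 0 h), *Cd5* -2.8936 (CD5/CD6 experiment, response Cd5-/- minus WT, 4 h v 0 h), *Cd6* -1.808 (CD5/CD6 experiment, Cd6-/- v WT, 4 h), *Cd6* -1.8226 (CD5/CD6 experiment, Cd6-/- v WT, 20 h), *Alcam* -0.7885 (LAT experiment, WT, 20 h v 4 h), *Alcam* -0.8826 and *A430093F15Rik* -0.7594 (LAT experiment, Lat-/-, 20 h v 4 h), *Alcam* -1.3587 and *A430093F15Rik* 0.862 (LAT experiment, Lat-/- minus WT response, 4 h v 0 h), *Alcam* -1.4528 (LAT experiment, Lat-/- minus WT response, 20 h v 0 h). With library totals alone, calls lost were *Cd5* 0.7214 and *Cd6* 0.5648 (CD5/CD6 experiment, WT, 20 h v 0 h), *Cd5* -0.2052 (LAT experiment, WT, 20 h v 4 h), *Cd5* -0.4822 (LAT experiment, Lat-/- minus WT response, 4 h v 0 h). With library totals alone, calls gained were *Cd6* 0.3704 (LAT experiment, WT, 20 h v 4 h), *Cd6* -0.6028 (LAT experiment, Lat-/- minus WT response, 20 h v 4 h). With only the groups compared in the fit, calls lost were *Cd5* -0.6159 (LAT experiment, Lat-/- minus WT response, 4 h v 0 h). With only the groups compared in the fit, calls gained were *Cd6* 0.6005 (CD5/CD6 experiment, WT, 4 h v 0 h), *Cd5* -0.4427 (CD5/CD6 experiment, WT, 20 h v 4 h), *Cd6* 0.249 (LAT experiment, WT, 20 h v 4 h). When a fold change above 2 was also required, calls lost were *Cd5* 0.8639 and *Cd6* 0.7107 (CD5/CD6 experiment, WT, 20 h v 0 h), *Cd6* 0.5941 (LAT experiment, WT, 4 h v 0 h), *Cd5* 0.9263 and *Cd6* 0.7556 (LAT experiment, WT, 20 h v 0 h), *Cd5* -0.415 and *Alcam* -0.7677 (LAT experiment, WT, 20 h v 4 h), *Cd5* 0.7053 (LAT experiment, Lat-/-, 4 h v 0 h), *Cd5* 0.5163 (LAT experiment, Lat-/-, 20 h v 0 h), *Alcam* -0.8672 and *A430093F15Rik* -0.7433 (LAT experiment, Lat-/-, 20 h v 4 h), *Cd5* -0.636 and *A430093F15Rik* 0.8605 (LAT experiment, Lat-/- minus WT response, 4 h v 0 h), *Cd6* -0.7728 (LAT experiment, Lat-/- minus WT response, 20 h v 0 h). Without both 0 h libraries that went against their labels, calls gained were *Cd6* 0.5155 (CD5/CD6 experiment, WT, 4 h v 0 h), *Cd5* -0.4427 (CD5/CD6 experiment, WT, 20 h v 4 h), *Cd5* -2.425 and *Cd6* 0.8974 and *Alcam* -1.2219 and *A430093F15Rik* 0.7878 (CD5/CD6 experiment, Cd5-/- v WT, 0 h), *Cd6* -1.0986 (CD5/CD6 experiment, Cd6-/- v WT, 0 h). Leaving out each replicate in turn changed the call or moved the value in the following results, given as the lowest to highest value: *Cd6* 0.5007 to 0.5456 (CD5/CD6 experiment, WT, 4 h v 0 h), *Cd5* -0.5634 to -0.2483 (CD5/CD6 experiment, WT, 20 h v 4 h), *Cd5* -2.4491 to -0.5151 and *Cd6* 0.1875 to 0.904 and *Alcam* -1.4763 to -0.0827 and *A430093F15Rik* 0.4187 to 0.9744 (CD5/CD6 experiment, Cd5-/- v WT, 0 h), *A430093F15Rik* 0.4537 to 0.5746 (CD5/CD6 experiment, Cd5-/- v WT, 4 h), *Alcam* 0.2109 to 1.5962 (CD5/CD6 experiment, response Cd5-/- minus WT, 20 h v 0 h), *Cd6* -1.092 to 0.2535 (CD5/CD6 experiment, Cd6-/- v WT, 0 h), *Cd6* -2.0989 to -0.6887 (CD5/CD6 experiment, response Cd6-/- minus WT, 4 h v 0 h), *Cd6* -2.1552 to -0.7213 (CD5/CD6 experiment, response Cd6-/- minus WT, 20 h v 0 h), *Alcam* -1.0367 to -0.0181 (CD5/CD6 experiment, response Cd5-/-Cd6-/- minus WT, 4 h v 0 h), *Cd5* -0.4877 to -0.2697 and *Alcam* -0.8372 to -0.5846 (LAT experiment, WT, 20 h v 4 h), *Cd5* 0.2734 to 0.659 (LAT experiment, Lat-/-, 20 h v 0 h), *Cd5* -0.5141 to 0.0086 and *Cd6* -0.4998 to -0.1084 and *Alcam* -1.4929 to -0.615 and *A430093F15Rik* -1.4567 to -0.3963 (LAT experiment, Lat-/-, 20 h v 4 h), *Alcam* -2.1055 to -0.8085 (LAT experiment, Lat-/- v WT, 0 h), *Cd5* -0.6371 to -0.5895 and *Alcam* -1.5924 to -0.5999 and *A430093F15Rik* 0.6046 to 1.0778 (LAT experiment, Lat-/- minus WT response, 4 h v 0 h), *Cd5* -0.6248 to -0.2389 and *Alcam* -1.6228 to -1.3112 (LAT experiment, Lat-/- minus WT response, 20 h v 0 h), *Cd6* -0.594 to -0.2693 and *A430093F15Rik* -1.0571 to -0.2381 (LAT experiment, Lat-/- minus WT response, 20 h v 4 h). The log2 ratio of *Cd5* to *Cd6* ranged over -0.6238 to -0.5585 (CD5/CD6 experiment WT 20 h minus CD5/CD6 experiment WT 4 h), 0.4376 to 0.5824 (Lat-/- 20 h minus Lat-/- 0 h), -0.0149 to 0.1171 (Lat-/- 20 h minus Lat-/- 4 h), 0.0672 to 0.1454 (Lat-/- 20 h minus LAT experiment WT 20 h). With the replicate number as a block, calls gained were *A430093F15Rik* 0.668 (CD5/CD6 experiment, Cd5-/- v WT, 0 h), *Alcam* -1.186 (LAT experiment, Lat-/- v WT, 0 h). The pairing held for the second of these results and not for the first, whose lowest pair correlation was 0.084. The block changed no other call of a member. Scaling by library totals alone moved the median gene by -0.25 and -0.24 in the WT responses at 4 h and by at most 0.20 in size elsewhere. Depth limits *Alcam* at 0 h in Lat-/- cells, with 5, 4, and 18 reads in the 3 libraries.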
